A study of Bos taurus with 6 samples.

Results

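The miR-148 and miR-130 families, a pair of conserved miRNA families, were compared between preovulatory dominant and subordinate follicles of cattle. All mature bovine names of miR-148, miR-152, miR-130, miR-301 and miR-454, with any letter suffix, were taken. This gave 8 of the 755 mature names in the count files. The miR-148 family consisted of bta-miR-148a, bta-miR-148b and bta-miR-152, and the miR-130 family of bta-miR-130a, bta-miR-130b, bta-miR-301a, bta-miR-301b and bta-miR-454. Granulosa cells, the somatic cells that line the follicle, came from estrus-synchronized Simmental heifers on day 19 of their cycle. Both groups thus share the synchronization with a prostaglandin and a GnRH analogue, and follicles were assigned to a group by surface diameter. Small RNA was sequenced in 3 libraries for each follicle type. RNA samples were pooled to make the libraries, and p-values measure the spread between such pools. How many follicles each library holds is not given in the sources used here. By the paper's counts, subordinate follicles greatly outnumbered the dominant ones. A dominant library may thus hold RNA of few follicles or of a single one, and the spreads of both groups may rest on unequal follicle numbers.

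A miRNA guides the silencing complex to mRNAs mainly through its seed, a short stretch near its 5′ end, and miRNAs with the same seed can repress overlapping sets of mRNAs. The members of each family share a seed, and the seeds of both families overlap when they are shifted by a base. The miR-148 family is known for repressing the DNA methyltransferase DNMT1, and miR-148a is abundant in liver and in cow milk. The miR-130 family is known for repressing the adipogenic receptor PPARG, and miR-130a for repressing antiangiogenic homeobox genes in endothelial cells.

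The members lie at scattered loci. In the RefSeq annotation of the assembly ARS-UCD2.0, used here for names and neighbours only because the reads were mapped to UMD3.1, all 8 members had a gene entry. The entry of bta-miR-148b lies within COPZ1 and that of bta-miR-152 within COPZ2, which are paralogous genes for the zeta subunit of the coatomer of transport vesicles. Bta-miR-301a and bta-miR-454 are neighbours within SKA2, which codes for a protein of the spindle attachment complex. Bta-miR-130b and bta-miR-301b are direct neighbours with no gene entry between them, while bta-miR-130a and bta-miR-148a are not within a protein-coding gene. Entries for bta-mir-148d and for bta-mir-148c, also named bta-mir-2957, overlap those of bta-miR-148a and bta-miR-152, respectively. Of these, bta-miR-2957 was counted by the authors and had 0 reads in all libraries. Every member was listed under 1 precursor only, so none of its counts was repeated in the files.

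The libraries held between 190385 and 311842 reads of known miRNAs for the dominant group and between 306932 and 364125 for the subordinate group, with 1 value per mature miRNA. Levels are given as CPM, the read counts scaled to a common library size with edgeR's TMM factors. On this scale 3 reads are worth 9.55 to 13.9 CPM in the dominant and 8.86 to 10.6 CPM in the subordinate libraries, and lower values could not be told from 0. A read stands for a whole mature miRNA, so levels of different members were compared without a length correction. The gonadal marker bta-miR-202 was abundant in all libraries, with a summed level between 43506 and 46747 CPM in preovulatory dominant and between 11575 and 15230 CPM in subordinate follicles. Markers of blood cells (bta-miR-451, bta-miR-486 and bta-miR-144, all with reads) summed to 13090, 8246 and 1048 CPM in preovulatory dominant replicates 1, 2 and 3 and to between 808 and 1530 CPM in subordinate follicles. The blood marker level of dominant replicates 1 and 2 thus stood above that of the other libraries. Of the 3 blood markers, 2 were called higher in preovulatory dominant follicles. Both endothelial markers, the arms of bta-miR-126, summed to between 73.2 and 293 CPM in preovulatory dominant and between 354 and 540 CPM in subordinate follicles. Neither was called, with log2 fold changes of -1.25 (5p arm, edgeR adjusted p = 0.113) and -1.09 (3p arm, edgeR adjusted p = 0.105). Each arm was nevertheless lower in all dominant than in all subordinate libraries. The 5 stromal markers summed to between 17601 and 27821 CPM and between 21063 and 35748 CPM, respectively, with bta-miR-214 alone called, lower in preovulatory dominant follicles.

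The question asked of the members was whether each of them, and each family as a sum, differed between the follicle types. Bta-miR-152 rose in preovulatory dominant follicles, and no other member met the thresholds of the study, taken as a log2 fold change of 1 or more in size, p not above 0.05 and a false discovery rate (FDR) not above 0.1. The test was edgeR's quasi-likelihood test, with p adjusted over all miRNAs in the fit. In the fit over all 353 detected miRNAs, 76 or 21.5% were called, 11.9% as higher and 9.63% as lower. All 8 members passed the detection rule, which asks for 1 or more reads in 2 or more replicates of either group, and 1 of the 8 was called. Among the 194 miRNAs averaging 10 or more reads, which include 7 members, 30.9% were called. The log2 fold change was positive for 4 members and negative for 4, with a median of -0.07, beside a median of -0.20 over all tested miRNAs. The libraries of the groups did not overlap in CPM for 4 of the 8 members, compared with 36.8% of all tested miRNAs and 55.7% of the 194 with more reads.

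**Figure D1:**
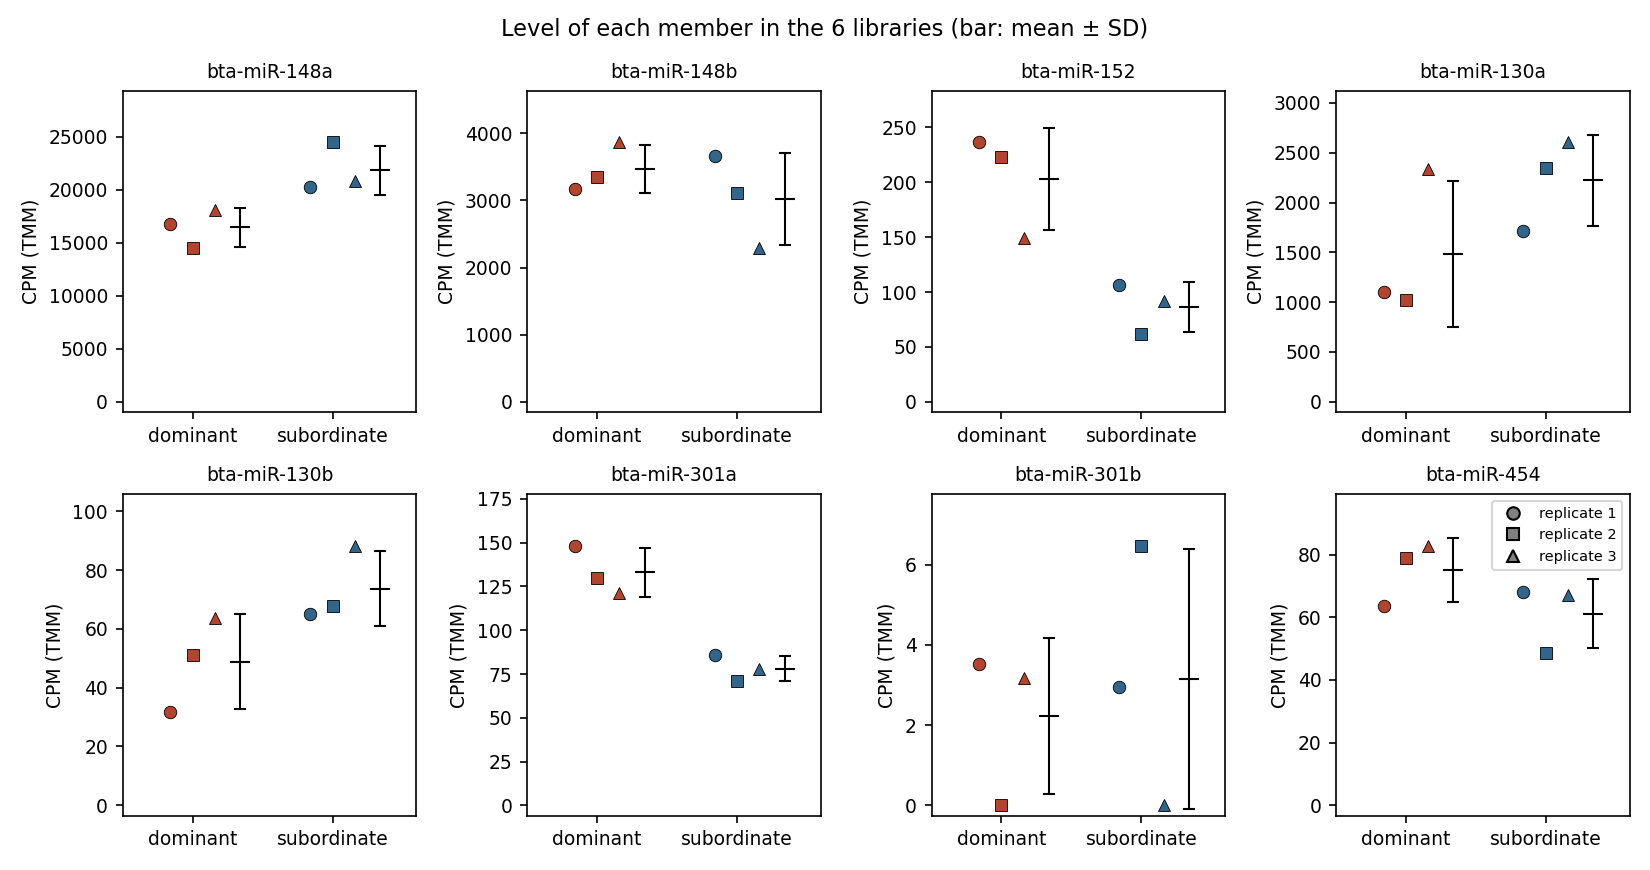
CPM of each of the 8 members (vertical axis, linear, a separate scale per panel) in the 3 libraries of preovulatory dominant (red) and the 3 of subordinate follicles (blue). Symbols mark the replicate number and the black bar gives the mean ± SD; bta-miR-148a, bta-miR-152, bta-miR-130b and bta-miR-301a do not overlap between the groups, and the third dominant replicate of bta-miR-130a lies at 2334 CPM, within the range of the subordinate libraries.

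Bta-miR-148a was the most abundant member in both groups. It had 16763, 14452 and 18101 CPM in the dominant libraries and 20203, 24448 and 20822 CPM in the subordinate libraries. Every subordinate library was above every dominant library. By mean level it ranked at place 16 of the 353 tested miRNAs in preovulatory dominant and at place 12 in subordinate follicles. Its log2 fold change was -0.41 (standard error 0.15, 95% interval -0.76 to -0.06, edgeR adjusted p = 0.0949), a level of 0.753 times that of subordinate follicles. The change was below the fold change threshold, and with the replicate number as a block the adjusted p was 0.200. Relative to the median of all tested miRNAs, the log2 fold change was -0.21.

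Bta-miR-148b, the member within COPZ1, had 3175, 3353 and 3865 CPM in preovulatory dominant follicles and 3664, 3105 and 2294 CPM in subordinate follicles. The groups overlapped. The log2 fold change was 0.20 (standard error 0.21, edgeR adjusted p = 0.515), with a 95% interval from -0.28 to 0.68, so that a change of 2-fold in either direction lay outside the interval.

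Bta-miR-152, the least abundant of its family, had 67, 48 and 47 reads in the dominant and 36, 19 and 26 reads in the subordinate libraries. After normalization these were 236, 223 and 150 CPM against 106, 61.5 and 91.7 CPM. All 3 dominant libraries were above all subordinate libraries, and dominant replicate 3 was the lowest of the dominant libraries. Bta-miR-152 had a log2 fold change of 1.22 (standard error 0.32, 95% interval 0.48 to 1.96, edgeR adjusted p = 0.0315), which is 2.33-fold. Without dominant replicate 1 the log2 fold change was 1.09 with an adjusted p of 0.116, and without subordinate replicate 2 it was 1.03 with an adjusted p of 0.101. The call was lost in both cases. The dominant libraries with the highest levels of bta-miR-152, replicates 1 and 2, also had the highest blood marker levels, and the part of this in the result was not tested.

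**Figure D2:**
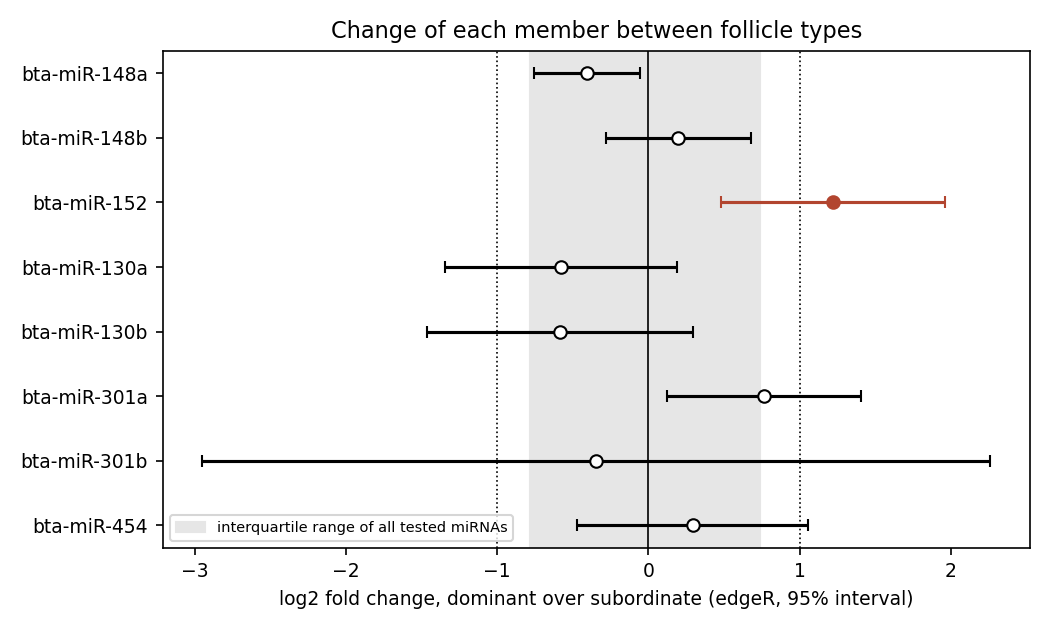
Log2 fold change of each member in preovulatory dominant over subordinate follicles (horizontal axis) with its 95% interval from edgeR; dotted lines mark the fold change threshold and the grey band the interquartile range of all tested miRNAs, from -0.79 to 0.74. Bta-miR-152 (filled red), at 1.22, is the only member past the threshold, and the interval of bta-miR-301b is the widest.

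In the miR-130 family bta-miR-130a was the most abundant member. It had 1097, 1025 and 2334 CPM in preovulatory dominant follicles and 1719, 2348 and 2604 CPM in subordinate follicles. Dominant replicates 1 and 2 lay below all subordinate libraries, while dominant replicate 3 lay among them. Between libraries of the same replicate number, the dominant library was lower in all 3 pairs. The coefficient of variation was 49.5% in preovulatory dominant against 20.5% in subordinate follicles. The part of the follicle numbers per library in this was not tested. The log2 fold change was -0.58 (standard error 0.34, 95% interval -1.35 to 0.19, edgeR adjusted p = 0.252). With the replicate number as a block it was -0.66 (edgeR adjusted p = 0.0984), below the fold change threshold. Without dominant replicate 3 the log2 fold change was -1.08 and bta-miR-130a was called as lower (edgeR adjusted p = 0.0246). The libraries low in bta-miR-130a, dominant replicates 1 and 2, were those with the highest blood marker levels, and the part of this in the result was not tested.

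Bta-miR-130b had 9, 11 and 20 reads in the dominant and 22, 21 and 25 reads in the subordinate libraries, or 31.8, 51.0 and 63.7 CPM against 65.0, 67.9 and 88.2 CPM. The groups did not overlap in CPM, by a narrow margin between dominant replicate 3 and subordinate replicate 1. As a share of all reads of known miRNAs they did overlap. Dominant replicate 3 had 20 of 311842 reads, a larger share than the 21 of 364125 in subordinate replicate 2. Its log2 fold change was -0.58 (standard error 0.39, 95% interval -1.47 to 0.30, edgeR adjusted p = 0.309). Its neighbour bta-miR-301b had 1, 0 and 1 reads in the dominant and 1, 2 and 0 reads in the subordinate libraries, all below the level of 3 reads. Over the 3 libraries of a group this gave 2 and 3 reads. Per read of known miRNAs, the ratio of the dominant to the subordinate group was 0.876, with an exact counting interval from 0.0732 to 7.65, so that no difference was detectable at this depth. Counting intervals cover counting error only. Of the reads of this pair of neighbours over all 6 libraries, bta-miR-301b made up 5 of 113, or 4.42% (95% exact binomial interval 1.45 to 10.02%).

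Bta-miR-301a, known as an activator of NF-κB signalling in tumour cells, had 42, 28 and 38 reads in the dominant and 29, 22 and 22 reads in the subordinate libraries. This corresponded to 148.2, 130 and 121 CPM against 85.6, 71.2 and 77.6 CPM. The groups did not overlap, and the coefficient of variation was 10.4% and 9.28%, respectively. The log2 fold change was 0.76 (standard error 0.28, 95% interval 0.12 to 1.40, edgeR adjusted p = 0.0892), or 1.70-fold, which was short of the fold change threshold. With the replicate block the adjusted p was 0.109. Bta-miR-454, its neighbour in SKA2, had 63.5, 78.8 and 82.8 CPM in preovulatory dominant and 67.9, 48.5 and 67.0 CPM in subordinate follicles. The groups overlapped, and the log2 fold change was 0.29 (standard error 0.34, 95% interval -0.47 to 1.06, edgeR adjusted p = 0.546).

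Without the fold change threshold, 3 of the 8 members (bta-miR-148a, bta-miR-152 and bta-miR-301a) had an FDR not above 0.1. With the replicate block these were bta-miR-152 and bta-miR-130a. Without the block, this rule was met by 30.3% of all tested miRNAs and by 46.9% of the 194 with a mean of at least 10 reads.

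The order of the members by level differed between the groups only in the places of bta-miR-130b and bta-miR-454. In preovulatory dominant follicles it ran from bta-miR-148a over bta-miR-148b, bta-miR-130a, bta-miR-152, bta-miR-301a, bta-miR-454 and bta-miR-130b to bta-miR-301b. Only the neighbours bta-miR-454 and bta-miR-130b overlapped in their libraries there. In subordinate follicles bta-miR-152, bta-miR-301a, bta-miR-130b and bta-miR-454 followed bta-miR-130a within a narrow range, with means of 86.5, 78.1, 73.7 and 61.2 CPM. Each of these overlapped with the next, and bta-miR-148b overlapped with bta-miR-130a.

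The family sums were carried by 1 member each. The miR-148 family summed to 20175, 18028 and 22116 CPM in preovulatory dominant and 23974, 27614 and 23207 CPM in subordinate follicles. The means were 20106 ± 2045 and 24932 ± 2354 CPM (SD, n = 3), a log2 ratio of -0.31, and the groups did not overlap. As a share of all reads of known miRNAs, however, the family made up 2.16 ± 0.10% and 2.32 ± 0.16% (SD, n = 3), and the groups overlapped. The separation with TMM factors was thus absent when libraries were scaled by their total reads. With median-of-ratios size factors in place of TMM, the log2 ratio was -0.32. The miR-130 family summed to 1344, 1285 and 2605 CPM in preovulatory dominant and 1940, 2542 and 2837 CPM in subordinate follicles, a log2 ratio of -0.48 with overlap between the groups. Without dominant replicate 3 this ratio was -0.91. Since the members had been chosen, the sums were not tested.

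**Figure D3:**
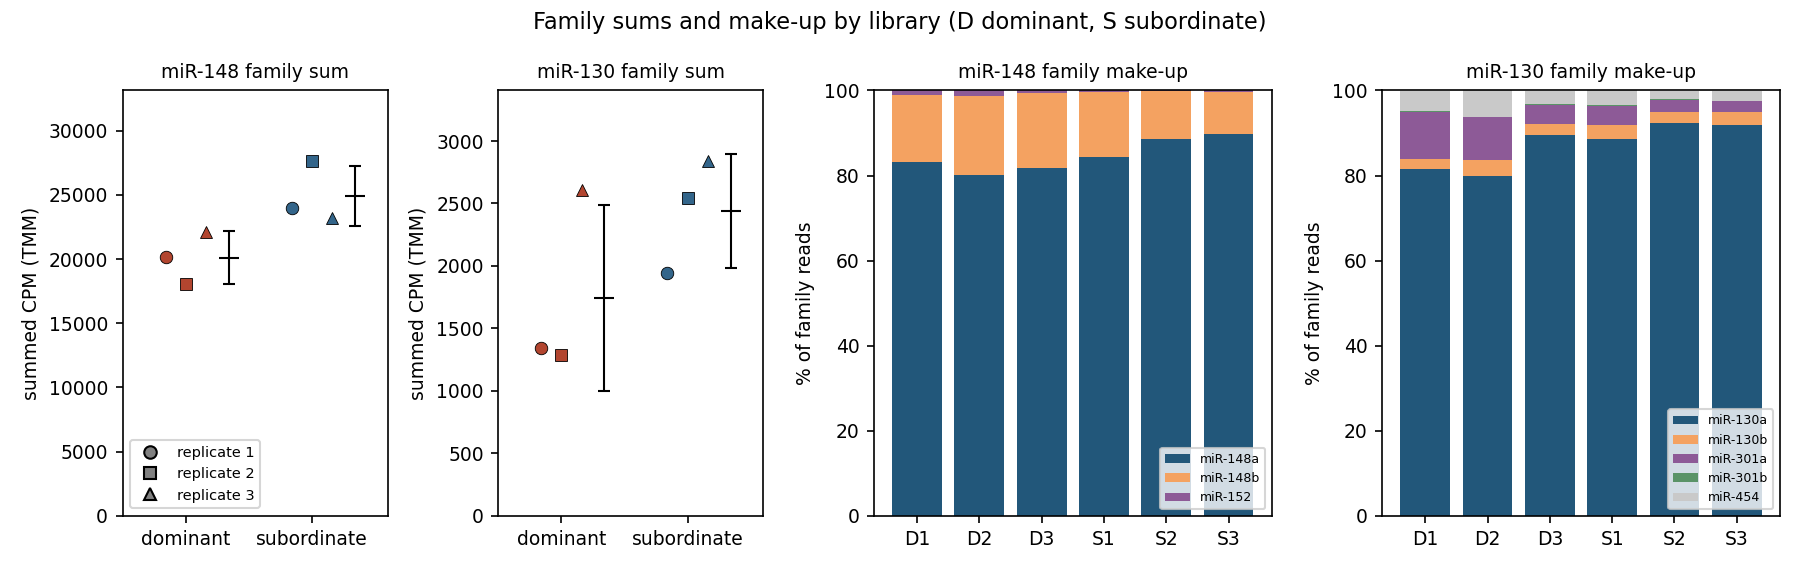
Left panels: summed CPM of each family by library, with the mean ± SD as a bar, where the miR-148 sums separate the groups and the miR-130 sum of dominant replicate 3 (2605 CPM) lies among the subordinate libraries. Right panels: share of each member in the reads of its family (percent) in dominant (D) and subordinate (S) libraries, with bta-miR-148a and bta-miR-130a as the largest share in every library.

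The make-up of each family was also compared. Bta-miR-148a made up 81.7 ± 1.47% of the reads of its family in preovulatory dominant and 87.5 ± 2.87% in subordinate follicles (SD, n = 3). Bta-miR-148b made up 17.3 ± 1.44% and 12.1 ± 2.81%, and bta-miR-152 made up 1.03 ± 0.306% and 0.354 ± 0.116%. None of these shares overlapped between the groups, but they are not independent, since a larger share of a member leaves less for the others. For bta-miR-148a the margin was narrow, with 83.1% in dominant replicate 1 and 84.3% in subordinate replicate 1. For bta-miR-148b it was narrower still, with 15.7% and 15.3% in the same libraries. In the other family bta-miR-130a made up 83.7 ± 5.22% and 90.9 ± 2.04%, and dominant replicate 3 with 89.6% lay within the range of the subordinate libraries. Bta-miR-301a made up 8.59 ± 3.45% and 3.32 ± 0.951% of the family, without overlap, and in dominant replicate 3 its share of 4.65% was close to the 4.41% of subordinate replicate 1.

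Ratios of members within a library do not depend on the normalization, and 8 of them were compared between the groups. For 3 libraries against 3, the exact permutation test cannot give a two-sided p below 0.1, so none of the ratios could pass 0.05. With 1 read added to each count, the groups did not overlap in 5 of the 8 ratios. For each of these 5, p was 0.1 (exact permutation test) and 0.16 after Benjamini-Hochberg adjustment over the 8. Some of the 5 margins were narrow, as given below. Each of these 5 contains bta-miR-148a or bta-miR-301a, which did not overlap in CPM either, so the 5 are not independent. The share of non-overlapping ratios among other pairs of miRNAs was not computed. The ratio of bta-miR-152 to bta-miR-148a had the largest difference. Its log2 value was -6.34 ± 0.48 in preovulatory dominant and -7.96 ± 0.54 in subordinate follicles (SD, n = 3), a difference of 1.62. Counted in reads, bta-miR-148a exceeded bta-miR-152 by 70.9, 64.9 and 121 times in the dominant libraries and by 190, 398 and 227 times in the subordinate libraries. The log2 ratio of bta-miR-148b to bta-miR-148a was -2.24 ± 0.15 and -2.87 ± 0.37, a difference of 0.63. Its margin was narrow, with -2.40 in dominant replicate 1 and -2.46 in subordinate replicate 1. Of bta-miR-152 to bta-miR-148b, whose host genes are paralogs, the ratio differed by 0.99, but the groups overlapped (exact permutation test, p = 0.2).

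In the miR-130 family the log2 ratio of bta-miR-301a to bta-miR-130a was -3.34 ± 0.77 in preovulatory dominant and -4.76 ± 0.41 in subordinate follicles (SD, n = 3), a difference of 1.41. Its margin was narrow, with -4.23 in dominant replicate 3 and -4.28 in subordinate replicate 1. The log2 ratio of bta-miR-301a to bta-miR-130b was 1.42 ± 0.62 and 0.09 ± 0.28, a difference of 1.33. Bta-miR-301a thus had more reads than bta-miR-130b in all dominant libraries, whereas both had similar counts in the subordinate libraries. For the neighbours in SKA2, the log2 ratio of bta-miR-454 to bta-miR-301a differed by -0.45. It was -0.80 ± 0.34 in preovulatory dominant and -0.35 ± 0.16 in subordinate follicles. With 1 read added the groups barely separated, at -0.53 in dominant replicate 3 and -0.52 in subordinate replicate 2. Without the added read the groups overlapped. Dominant replicate 3 had 26 reads of bta-miR-454 against 38 of bta-miR-301a, and subordinate replicate 2 had 15 against 22. Bta-miR-454 to bta-miR-130a overlapped between the groups (exact permutation test, p = 0.2), as did bta-miR-130b to bta-miR-130a, whose ratio differed by 0.08 (exact permutation test, p = 0.9).

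**Figure D4:**
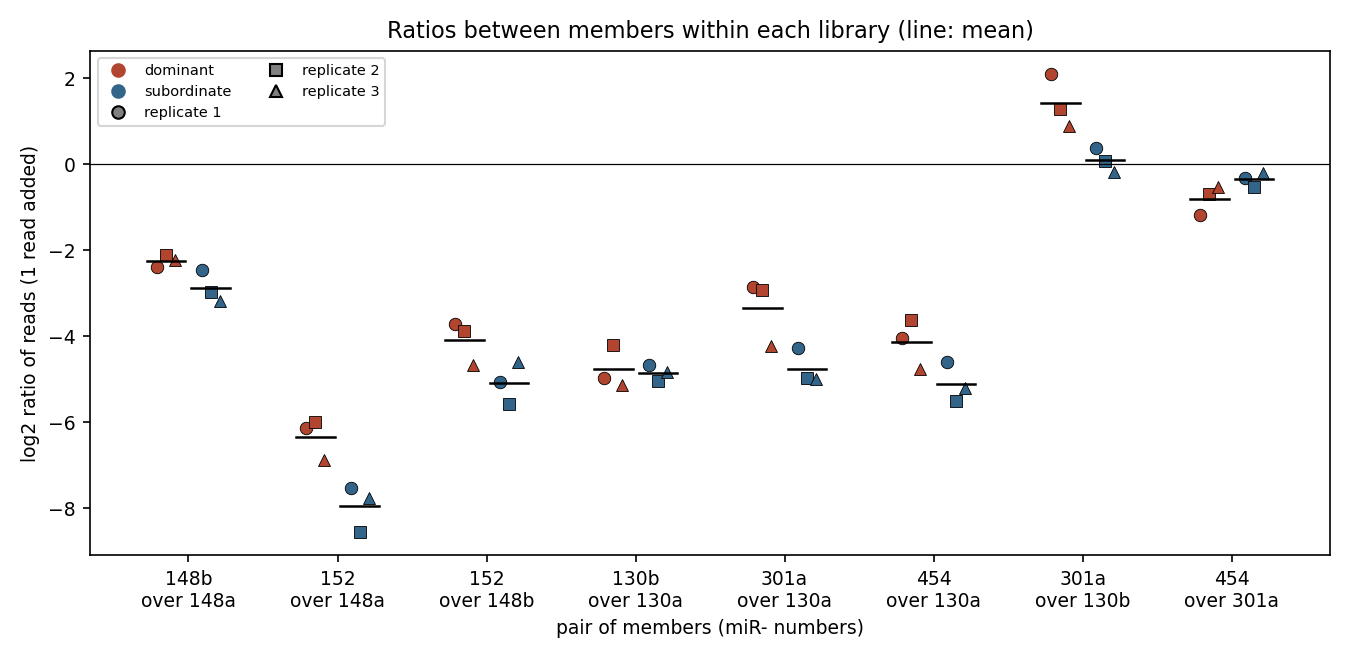
Log2 ratio of the reads of 2 members in each library (vertical axis, 1 read added to both) for the 8 pairs, in preovulatory dominant (red) and subordinate follicles (blue); lines are group means and symbols the replicate number. The ratios of bta-miR-152 to bta-miR-148a and of bta-miR-301a to both miR-130 members are higher in all dominant libraries, and bta-miR-130b to bta-miR-130a overlaps.

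Among other miRNAs averaging 50 or more reads, the levels most like those of bta-miR-148a over the 6 libraries were those of bta-miR-10b (Pearson's r = 0.97), bta-let-7f (0.96) and bta-miR-140 (0.93). For bta-miR-152 they were those of bta-miR-222 (0.97), bta-miR-29a (0.95) and bta-miR-708 (0.94), and for bta-miR-130a those of bta-let-7f (0.89), bta-miR-30e-5p (0.88) and bta-miR-16b (0.86). These values are descriptions over 6 libraries that share their depth and normalization, taken as the highest of more than 130 candidates each. Bta-miR-19a and bta-miR-19b, whose seed is shifted by a base from that of the miR-130 family, had log2 fold changes of -1.23 (standard error 0.43, edgeR adjusted p = 0.0767) and -0.79 (standard error 0.25, edgeR adjusted p = 0.0555) in edgeR's quasi-likelihood test. Of these only bta-miR-19a was past the fold change threshold.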

How the data were processed

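Small RNA libraries of granulosa cells were analysed, 3 from preovulatory dominant and 3 from subordinate follicles. The authors trimmed reads with Cutadapt and Seqtk, aligned them by Bowtie to the UMD3.1 genome and used miRDeep2 to count them on bovine miRBase release 20 entries. The deposited values are raw counts per pair of mature miRNA and precursor, and the largest row of each mature name was used. Groups were taken from the labelled follicle type. The groups were compared in edgeR 4.0.16 under R 4.3.3, with TMM factors and a quasi-likelihood model of follicle type. P-values were adjusted (Benjamini-Hochberg) across the 353 miRNAs that passed the detection rule. Standard errors were derived from the log2 fold change and the F statistic. Tests in edgeR were checked on simulated data. Ratios used a pseudocount of 1 read and exact permutation tests (scipy 1.17.1). The alternatives were DESeq2 1.42.0, other size factors, filters, row sums, thresholds, a replicate block and leaving out each library.

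The main fit and the ratio tests did not pair the libraries, and the replicate number entered as a block only as an alternative. Deviations from the group mean correlated between libraries of the same number with r of 0.14, 0.38 and 0.41 over 194 miRNAs. Between libraries of different numbers r ran from -0.42 to 0.19, and that of dominant replicate 2 with subordinate replicate 1 (0.19) was above that of the first pair. Whether pools of the same number share animals is not given in the sources used here. The members and lists were chosen with earlier results of these data known. All members, cell type markers, the neighbouring-seed miRNAs bta-miR-19a and bta-miR-19b, and the 3 miRNAs most correlated with bta-miR-148a, bta-miR-152 and bta-miR-130a are named. Mature sequences were not used here.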

Additional observations from a re-analysis of the deposited data

How the results depend on the processing

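Bta-miR-152 was called with the settings reported and under 14 of 17 alternatives, and its log2 fold change ran from 0.85 to 1.42. Removing the fold change threshold could not undo the call. The call was lost without dominant replicate 1 and without subordinate replicate 2. The lowest value, 0.85, came from the comparison of dominant replicate 3 alone described below. The number of called members ran from 0 to 2 when 1 library was left out, with 0 without dominant replicate 1 or subordinate replicate 2, and was 3 without a fold change threshold. The number of called miRNAs overall ran from 54 to 75 with 1 library left out and was 107 without a fold change threshold. Dominant replicate 3 alone was set against the subordinate libraries, a comparison chosen after seeing the data in which the lone library is assumed to vary like the subordinate ones, so that it does not test the dominant group. There 39 miRNAs and 0 members were called (78 at an unadjusted p of at most 0.05, edgeR), and bta-miR-130a became 0.13 and bta-miR-301b 0.055. Without a composition factor the median log2 fold change of all miRNAs shifted by 0.19, and 47 were called higher and 23 lower instead of 42 and 34. The log2 ratio of the miR-148 sum was then -0.10 and that of both families together -0.12, and the values of the other sums kept their direction. The share of all counts is the same measure on another scale and gives the same ratios. The families together had a log2 ratio of -0.33 with TMM factors. With libraries left out, the log2 fold change of bta-miR-301b ran from -0.83 to 0.50, positive (0.08) also without dominant replicate 2, and the difference of the ratio of bta-miR-130b to bta-miR-130a ran from -0.20 to 0.26. Without subordinate replicate 2 this difference was -0.02. With the replicate block, 71 miRNAs and 1 member, bta-miR-152 (log2 fold change 1.22, edgeR adjusted p = 0.0341), were called and no call of a member changed. Bta-miR-301b was not tested under the filters on low counts. The smallest p of a paired test of a ratio is 0.25.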
